A study of Mus musculus with 89 samples.

Results

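Alternatively activated macrophages are the macrophage state that the type 2 cytokines IL-4 and IL-13 induce. Both cytokines bind receptors that share the IL-4 receptor alpha chain, activate the transcription factor STAT6, and turn on genes for secreted products, arginine metabolism, lectin and scavenger receptors, and chemokines. In the lung this state accompanies allergic and parasitic inflammation and tissue repair, and some of its genes, Retnla among them, are also made by airway epithelium, fat or other leukocytes. The 7 genes described here, of 17097 genes measured, were chosen by name as products of this state. They are Retnla (a secreted resistin-like protein also called FIZZ1), Arg1 (arginase 1), Mrc1 (the mannose receptor CD206), Mgl2 (the galactose lectin CD301b), Cd163 (the haemoglobin scavenger receptor), Pdcd1lg2 (the PD-1 ligand PD-L2) and Ccl22 (a chemokine that draws CCR4-bearing T cells). Each was read by 1 probe set, and all 7 passed the filter on low values that left 15065 genes for testing.

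Left lobes of perfused lungs from male mice, 7 to 8 weeks old, gave the RNA for 89 Affymetrix arrays, which fall into 18 groups. Mice were C57BL/6, BALB/c or SP-D-/-. The last lack surfactant protein D, a lectin of the airspace, and the labels do not name their parent strain. Every mouse breathed either air or ozone (3 ppm) for 2 h, and lungs were taken 12 h after ozone. In the Af groups, Aspergillus fumigatus, a mould, had been injected into the peritoneum on day 0 and day 7 and given intranasally on day 13. The labels do not say whether the air and ozone groups were sensitized. The numbers of arrays for C57BL/6, SP-D-/- and BALB/c were 6, 5 and 5 in air and 6, 4 and 2 after ozone alone. They were 4, 6 and 5 at Af 24 h (air), 5, 6 and 6 at Af 96 h (ozone), 4, 5 and 6 at Af 168 h after air and 6, 4 and 4 at Af 168 h after ozone. The Af 96 h mice all received ozone and were therefore compared with ozone alone. The labels number replicates but do not state that each is its own animal, so the p-values measure the spread between arrays, whose number limits the precision. In whole lung, fewer cells of a type and less RNA per cell cannot be told apart.

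Of the 89 arrays, 5 had strain markers outside the range of the other arrays with their label. The 5 were listed first and the ranges taken from the rest, so their lying outside is not a test. The markers were the signal of Sftpd, which encodes surfactant protein D, and an index over 76 genes that is -1 at the C57BL/6 and 1 at the BALB/c mean in air. On the other 84 arrays Sftpd ran from 4.42 to 7.76 in SP-D-/-, from 9.20 to 11.15 in C57BL/6 and from 9.61 to 11.24 in BALB/c, and the index from -1.03 to -0.24 in C57BL/6 and from 0.45 to 1.03 in BALB/c. Replicate 6 of BALB/c Af 168 h with ozone had an Sftpd signal of 5.59 and an index of -0.40. Replicate 1 of C57BL/6 Af 96 h with ozone had an index of 0.63, and replicate 1 of SP-D-/- Af 96 h with ozone had an Sftpd signal of 10.94. Replicates 4 and 5 of BALB/c Af 24 h had indices of -0.10 and 0.29 and Sftpd signals of 8.79 and 7.68. Both were the lowest arrays of their group in every member, so leaving them out raises each BALB/c change at Af 24 h. Where a call or a value of a member turned on these arrays it is given with and without them. Counts over the other gene lists are given with all arrays only. Those for BALB/c at Af 24 h therefore hold the 2 doubtful arrays of that group. Markers of alveolar type 2 cells had group means from 10.86 to 11.91 and those of airway secretory cells from 8.59 to 11.96.

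Of the 6 members with a promoter sequence at hand, Retnla and Pdcd1lg2 held a match to TTC and GAA with 4 bases between them, the spacing that STAT6 prefers, on either strand of a 300-base window around the gene start. The 2 promoters are shown because STAT6 is the factor through which this state is induced; capitals mark the motif matches. In Retnla this match begins at position -145 relative to the gene start, and a match to TTGCNNAA, a C/EBP motif, begins at -134, without overlap. In Pdcd1lg2 it begins at -82. Among 32851 mouse promoters of this length, 6.95% held the first motif and 10.8% the second. None of the 6 held TTC and GAA with 3 bases between them, the spacing of other STAT factors, which 8.3% of promoters held. Both sequences are RefSeq (GRCm38.p6), 5′ to 3′ on the plus strand, at chr16:48842359-48842658 and chr19:29410669-29410968.
Retnla: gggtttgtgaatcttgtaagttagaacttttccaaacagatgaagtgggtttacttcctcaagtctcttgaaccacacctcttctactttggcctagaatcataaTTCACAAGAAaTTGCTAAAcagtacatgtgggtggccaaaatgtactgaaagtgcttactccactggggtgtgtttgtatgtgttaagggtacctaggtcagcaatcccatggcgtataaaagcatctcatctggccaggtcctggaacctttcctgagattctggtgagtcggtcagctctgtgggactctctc
Pdcd1lg2: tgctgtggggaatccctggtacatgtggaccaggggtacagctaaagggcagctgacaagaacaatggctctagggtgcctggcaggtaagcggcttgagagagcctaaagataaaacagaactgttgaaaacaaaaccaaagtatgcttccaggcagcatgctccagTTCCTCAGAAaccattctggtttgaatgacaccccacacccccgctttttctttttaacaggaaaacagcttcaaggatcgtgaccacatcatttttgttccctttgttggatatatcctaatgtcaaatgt

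Retnla was called in 12 of the 30 comparisons between groups, more than any other member, and stood at 3 separate levels in the strains in air. Its log2 signal on the 6 C57BL/6 air arrays had a lowest, median and highest value of 9.44, 9.66 and 10.19. The 5 SP-D-/- air arrays read 10.91, 11.68, 11.06, 11.61 and 11.61. The 5 BALB/c air arrays read 8.59, 7.17, 8.07, 8.55 and 8.69. Every SP-D-/- array lay above every C57BL/6 array, and every BALB/c array lay below them. The group means were 11.37 ± 0.36 (SD, n = 5), 9.72 ± 0.29 (SD, n = 6) and 8.21 ± 0.63 (SD, n = 5). Retnla was 1.65 ± 0.29 (SE) higher on the log2 scale in SP-D-/- than in C57BL/6, with a limma adjusted p of 0.000944. It was the sole member called in that comparison (1 of 7, against 0.0664% of all genes tested). With the replicate numbers as a block in the fit, this call was lost. In BALB/c Retnla fell by 1.51 ± 0.29 relative to C57BL/6 (limma adjusted p = 0.00104), again as the sole member called (1 of 7, against 0.511% of all genes). None of the marker genes of macrophages, monocytes, airway epithelium or fat was called between SP-D-/- and C57BL/6 in air. Limma called only 10 of the 15065 genes tested there, and the fat list held 1 tested gene. With so few calls, 0 among the markers cannot show whether cell numbers differed, which was not tested. Between BALB/c and C57BL/6, 1 of the 7 alveolar macrophage markers fell, the chitinase-like gene Chil3, which was 1.85 lower (adjusted p = 0.00386). Chil3 is also on the list of other alternative activation genes given further on, so it does not mark cell number alone.

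After ozone alone the 3 strains came together in Retnla. The 6 C57BL/6 ozone arrays had a lowest, median and highest value of 10.58, 11.67 and 12.01. The 4 SP-D-/- ozone arrays read 11.77, 12.28, 11.52 and 11.90, and the 2 BALB/c arrays read 11.69 and 11.82. The ozone and air arrays did not overlap in C57BL/6 and BALB/c, and they overlapped in SP-D-/-, where the air level was already high. Retnla rose in C57BL/6 by 1.71 ± 0.28 and in BALB/c by 3.54 ± 0.41, and in SP-D-/- the difference was 0.49 ± 0.33 (limma adjusted p = 0.000295, 7.36e-09 and 0.41). In C57BL/6 and BALB/c it was 1 of 7 members called, against 0.0266% and 0.0133% of all genes. In SP-D-/- limma called 0 of 7 members, against 0.0996% of all genes. At an unadjusted p under 0.05 were 0 members and 2511 of the 15065 genes tested. The SP-D-/- ozone arrays had brighter hybridization controls than the air arrays (10.38 ± 1.29 against 9.04 ± 1.30, log2) and a larger actin difference (2.75 against 1.88), 2 measures described further on; their part was not tested. The ozone responses themselves differed from C57BL/6 by -1.22 ± 0.43 in SP-D-/- and 1.82 ± 0.49 in BALB/c, with unadjusted p of 0.00584 and 0.000412, but neither passed over all genes (limma adjusted p = 0.635 and 1). In those tests 0 of 7 members and 0% of all genes were called. An unadjusted p under 0.05 was reached by 2 and 1 members, and by 1157 and 131 of the 15065 genes tested. Between strains after ozone, limma called 0 of 7 members in SP-D-/- against C57BL/6 (0.797% of all genes) and 0 of 7 in BALB/c against C57BL/6 (0.146%). In each, 1 member had an unadjusted p under 0.05, as did 2760 and 446 of the 15065 genes tested. The BALB/c values rest on 2 ozone arrays. The call held on leaving out either of them and was lost with the replicate numbers as a block.

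**Figure D1:**
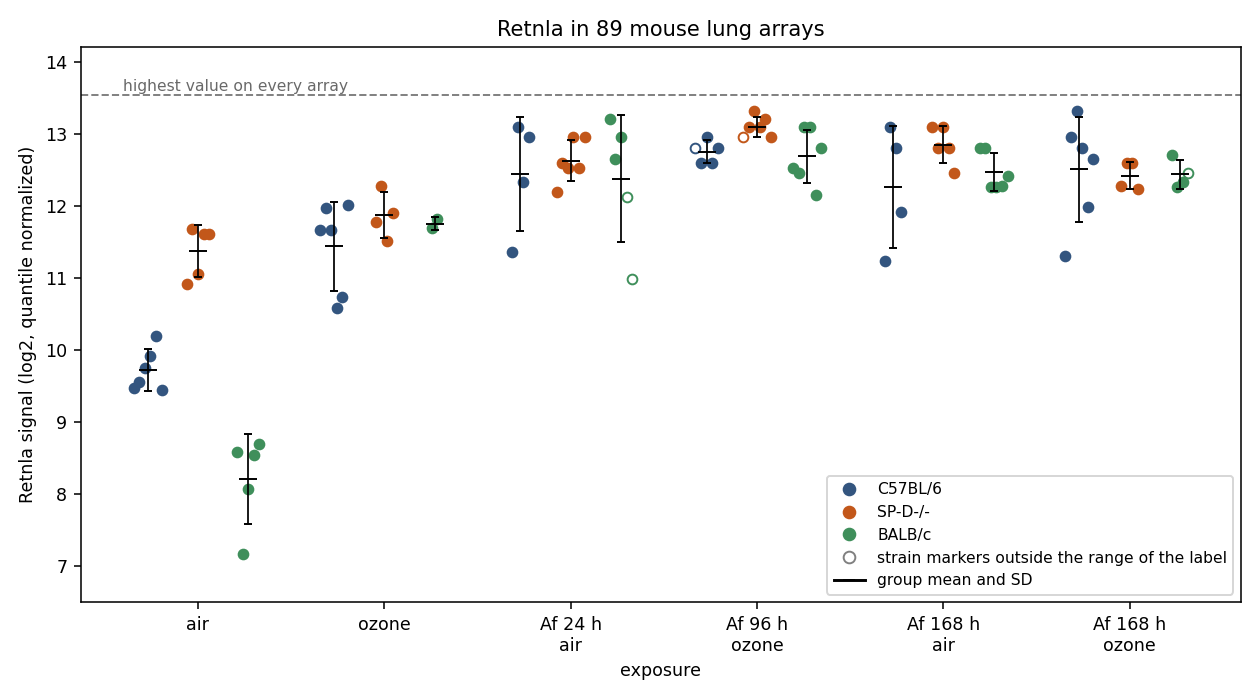
Retnla signal (log2, vertical axis) on each of 89 arrays by exposure (horizontal axis) and strain (colour), with the group mean and SD in black; open circles mark the 5 arrays with strain markers outside the range of their label, and the dashed line is the highest value on every array, 13.54. The strains are separate in air (means of 8.21, 9.72 and 11.37), and the 12 challenged groups have means from 12.26 to 13.10.

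After Aspergillus challenge Retnla was near the top of the scale in every strain. At Af 24 h the 4 C57BL/6 arrays read 11.36, 13.09, 12.33 and 12.96. The 5 BALB/c arrays read 13.20, 12.65, 12.96, 12.12 and 10.99, the last 2 being those with doubtful strain markers. The 6 SP-D-/- arrays had a lowest, median and highest value of 12.20, 12.55 and 12.96. No Af 24 h array overlapped the air arrays of its strain. Retnla rose by 2.71 ± 0.31 in C57BL/6, 1.25 ± 0.29 in SP-D-/- and 4.17 ± 0.31 in BALB/c (limma adjusted p = 9.59e-09, 0.00443 and 8.39e-18). Without the 5 arrays the BALB/c rise was 4.72 (adjusted p = 3.91e-18). The C57BL/6 call was lost with the replicate numbers as a block.

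The high level of Retnla lasted through the latest samples. At Af 168 h with air the C57BL/6 arrays read 11.23, 13.09, 12.80 and 11.92, and the SP-D-/- arrays read 13.09, 12.80, 13.09, 12.80 and 12.46. The 6 BALB/c arrays ran from 12.26 to 12.80, with a median of 12.35. All stood above the air arrays of their strain, and Retnla was higher than in air by 2.53 ± 0.31, 1.47 ± 0.31 and 4.25 ± 0.29 in C57BL/6, SP-D-/- and BALB/c (limma adjusted p = 1.16e-07, 0.00591 and 2.43e-19). Of these calls, that in SP-D-/- was lost with the replicate numbers as a block. From Af 24 h to Af 168 h the Retnla differences were -0.18 ± 0.34, 0.22 ± 0.29 and 0.09 ± 0.29 in the same strain order, and none was called. At Af 96 h with ozone the lowest and highest arrays were 12.59 and 12.96 in C57BL/6, 12.96 and 13.32 in SP-D-/- and 12.15 and 13.09 in BALB/c. Relative to ozone alone Retnla rose by 1.31 ± 0.29 in C57BL/6 and 1.23 ± 0.31 in SP-D-/- (adjusted p = 0.000513 and 0.0167), and by 1.29 and 1.26 without the 5 arrays (adjusted p = 0.000511 and 0.0134). The SP-D-/- call was lost on leaving out replicate 2, 4 or 5 of the SP-D-/- ozone group, and with the replicate numbers as a block. In BALB/c the arrays did not overlap either, but the difference of 0.93 ± 0.40 was not called (adjusted p = 0.85).

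The scale sets a limit on these rises. The deposited values were normalized so that the highest value on every array was 13.54, and 37 of the 61 challenged arrays had Retnla within 1 log2 unit of it, against 0 of the 28 air and ozone arrays. On 57 of the 61 challenged arrays it was among the 100 brightest of 45141 probe sets, its median rank after challenge was 9 and its best rank 3, whereas on 1 BALB/c air array it ranked 7343. Because arrays share the same set of values, equal ranks give equal signals: 49 of the 61 challenged arrays fell on 12 shared values, with 9 arrays at 12.80, 8 at 12.96 and 8 at 13.09. Retnla thus had little room above its challenged levels on this scale, and how far this bears on the size of its rises was not tested. Over the 18 groups the means ran from 8.21 to 13.10, and of the 17 steps between neighbours in the order of means only 2 exceeded the larger SD of the pair, those from BALB/c air to C57BL/6 air and from C57BL/6 air to SP-D-/- air. The difference of the Af 24 h response from C57BL/6 was -1.46 ± 0.43 in SP-D-/- and 1.46 ± 0.44 in BALB/c (unadjusted p = 0.00109 and 0.00141, limma adjusted p = 0.998 and 1).

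Arg1, which converts arginine to ornithine and urea, rose at Af 24 h in each strain. In C57BL/6 the air arrays ran from 4.35 to 4.83 with a median of 4.60, and the Af 24 h arrays read 4.35, 8.97, 7.19 and 7.80. Of these, replicate 1 was at the air level and the other 3 were far above it. In SP-D-/- the air arrays read 4.97, 6.15, 6.38, 4.53 and 4.38, and the Af 24 h arrays had a lowest, median and highest value of 6.20, 6.87 and 8.37. In BALB/c the air arrays read 4.25, 4.49, 4.83, 4.72 and 4.44 and the Af 24 h arrays 8.65, 6.05, 8.19, 3.80 and 4.60, the last 2 being the doubtful ones. Arg1 rose by 2.47 ± 0.59, 1.87 ± 0.56 and 1.71 ± 0.58 in C57BL/6, SP-D-/- and BALB/c (limma adjusted p = 0.00328, 0.0325 and 0.0407). Without replicate 1, the lowest array, the C57BL/6 rise was 3.38 (limma adjusted p = 0.000145). Leaving out each array in turn gave C57BL/6 rises from 1.84 to 3.38, and the call was lost on 0 of 10. With the replicate numbers as a block, the C57BL/6 call was lost. Without the 5 arrays the BALB/c rise was 3.09 (limma adjusted p = 0.000666). With all arrays the BALB/c call was lost with only the groups compared in the fit, and with the block. The SP-D-/- call was lost on leaving out any of 6 of 11 arrays (replicate 4, 5 or 6 of Af 24 h, or 2, 5 or 6 of air) and the BALB/c call on leaving out 8 of 10, all but the 2 doubtful ones, with changes from 1.63 to 2.15 and from 1.11 to 2.33.

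At the later times Arg1 stayed above air or ozone alone by a called amount in some strains. At Af 168 h with air the C57BL/6 arrays read 6.43, 7.09, 7.53 and 6.32, all above the air arrays, and Arg1 was 2.24 ± 0.59 higher than in air (adjusted p = 0.0323). This call was lost on leaving out replicate 3, 4 or 6 of Af 168 h or 2, 4 or 6 of air, with changes from 2.01 to 2.41. The SP-D-/- and BALB/c groups had means of 5.41 ± 0.90 (SD, n = 5) and 5.52 ± 0.85 (SD, n = 6) then, and their differences from air of 0.12 and 0.97 were not called (adjusted p = 0.934 and 0.411). Neither strain differed from C57BL/6 at that time by a called amount (-1.44 ± 0.62 and -1.33 ± 0.59, adjusted p = 0.995 and 0.45). At Af 96 h with ozone Arg1 was 1.96 ± 0.56 higher than after ozone alone in C57BL/6 and 2.24 ± 0.59 higher in SP-D-/- (adjusted p = 0.00508 and 0.0239), without overlap of the arrays in either strain, and 1.92 and 2.16 higher without the 5 arrays (adjusted p = 0.00404 and 0.022). The C57BL/6 arrays read 6.94, 6.05, 6.43, 7.36 and 7.02 then, against 4.27 to 5.53 after ozone. The SP-D-/- call was lost on leaving out replicate 1, 3 or 5 of Af 96 h or 2, 4 or 5 of ozone. It was also lost with the replicate numbers as a block. The BALB/c difference of 1.54 ± 0.75 was not called (adjusted p = 1). At Af 168 h with ozone the Arg1 means were 5.35, 4.97 and 5.03 in C57BL/6, SP-D-/- and BALB/c. Its group means ran from 4.55 in BALB/c air to 7.15 in SP-D-/- Af 24 h, and no step between neighbours in that order exceeded their SD.

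Pdcd1lg2, an inhibitory ligand on antigen-presenting cells, was close to the bottom of the scale and exceeded the filter level of 4.45 on 21 of 89 arrays. These were 0 air arrays, 1 ozone array in SP-D-/- and otherwise challenged arrays. The gene thus passed the filter through the groups where it was high, and its rises start from air values under that level. At Af 24 h it read 3.82, 5.93, 4.38 and 4.89 in C57BL/6 and 5.58, 4.47, 6.00, 4.15 and 3.60 in BALB/c, and ran from 3.99 to 5.62 with a median of 4.41 in SP-D-/-. In air it ran from 3.51 to 4.03, from 3.21 to 3.98 and from 3.47 to 3.56 in the same strain order, so the arrays were separate in SP-D-/- and overlapped in the other strains. It rose by 1.01 ± 0.36, 1.11 ± 0.35 and 1.08 ± 0.34 in C57BL/6, BALB/c and SP-D-/- (limma adjusted p = 0.0408, 0.0262 and 0.0445). These calls were close to the threshold. They were lost with cyclic loess between arrays in C57BL/6 and SP-D-/- and on leaving out any of 6 of 10, 4 of 10 and 9 of 11 arrays, in the same order as the rises. In C57BL/6 and BALB/c they were also lost with only the groups compared in the fit, and with the replicate numbers as a block. Without the 5 arrays the BALB/c rise was 1.70 (adjusted p = 0.00382). At Af 96 h with ozone the SP-D-/- arrays ran from 4.46 to 5.14 with a median of 4.73, and the C57BL/6 arrays read 3.93, 3.81, 6.68, 4.25 and 3.72, of which replicate 3 was the highest value of Pdcd1lg2 on any array. Its differences from ozone alone were 1.01 ± 0.36 and 0.70 ± 0.34 and were not called (adjusted p = 0.107 and 0.0888). Without replicate 3 the C57BL/6 difference was 0.15 (adjusted p = 0.726). With replicate 3 kept and the 5 arrays left out it was 0.84 and was called (adjusted p = 0.0423), and that in SP-D-/- was 0.99 (adjusted p = 0.116).

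Retnla, Arg1 and Pdcd1lg2 were thus the members called at Af 24 h in each strain, 3 of 7 every time. Of these, Pdcd1lg2 had passed the filter through challenged arrays. The background was 16.2% of all genes in C57BL/6, 4.71% in SP-D-/- and 12.1% in BALB/c. The median change of the 7 was 1.01, 0.95 and 1.11, and that of all genes tested was 0.00, 0.01 and -0.01. In BALB/c 4 of 7 were called without the 5 arrays (4.51% of all genes). With the level of hybridization controls as a covariate as well, 5 of 7 were called in C57BL/6 (12.8%), 4 of 7 in SP-D-/- (6.22%) and 6 of 7 in BALB/c (7.57%). These 3 comparisons use different arrays for each strain.

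**Figure D2:**
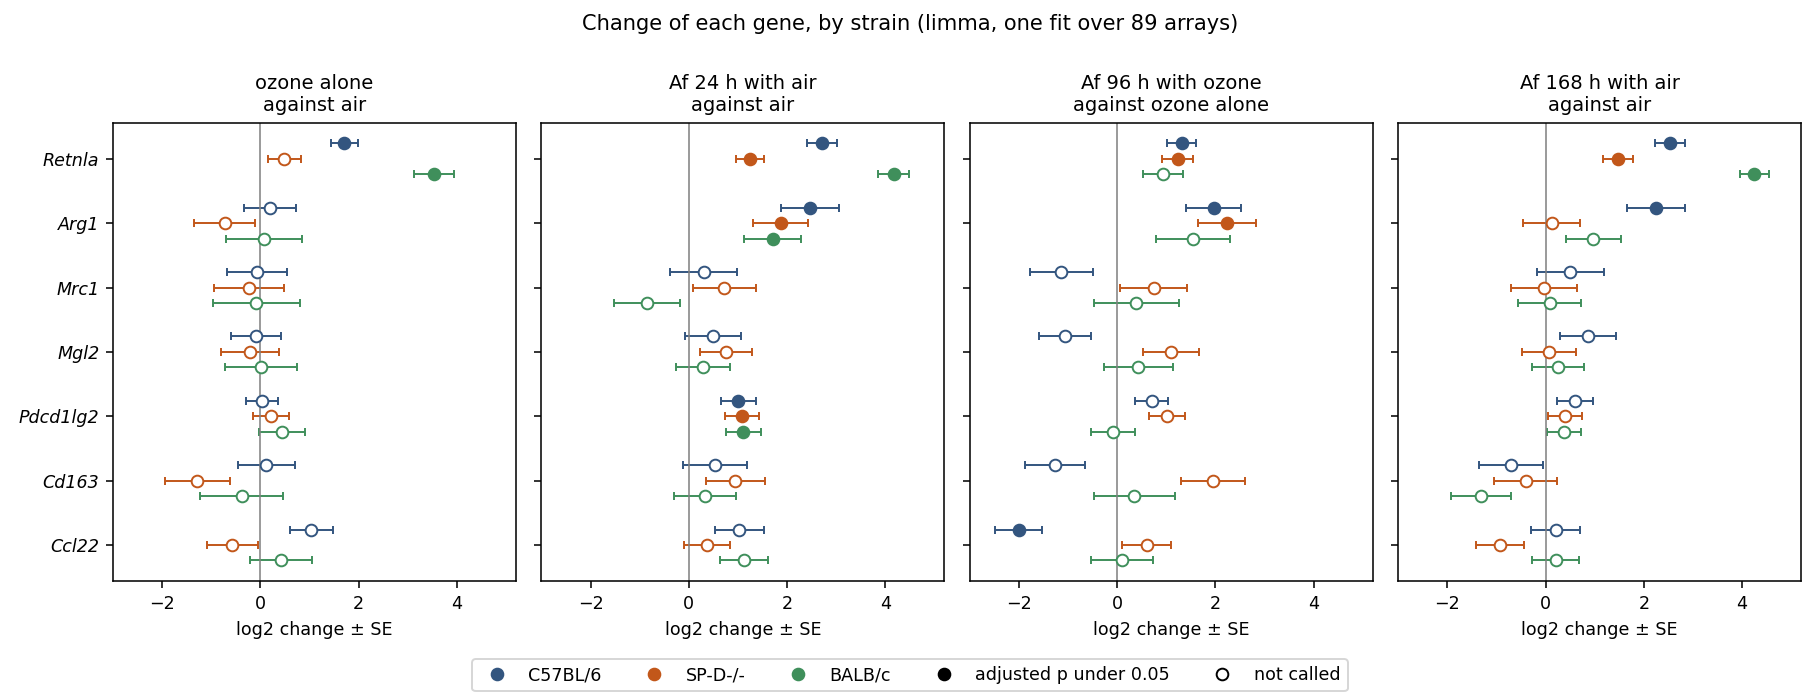
Log2 change ± SE of each of the 7 genes (rows) in 4 comparisons (panels) for the 3 strains (colours); filled points passed an adjusted p under 0.05 in the limma fit over 89 arrays. Retnla was called in 10 of these 12 strain comparisons, Arg1 in 6, Pdcd1lg2 in 3 and Ccl22 in 1, as a fall of 2.01 in C57BL/6 at Af 96 h with ozone.

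The receptors Mrc1, Mgl2 and Cd163 had no call against air or ozone alone in any strain in the fit of all arrays. Each had such a call in some strain without the 5 arrays, alone or with the hybridization controls as a covariate, as given further on. The pooled SD within groups was 1.08, 0.9 and 1.03 for these genes, against 0.49, 0.94 and 0.56 for Retnla, Arg1 and Pdcd1lg2. With that spread, a missed threshold does not show that the receptors followed another course. Mrc1, an endocytic receptor for mannose-rich glycoproteins, was bright in air, with means of 8.07 ± 0.22 in C57BL/6 (SD, n = 6), 8.20 ± 0.18 in SP-D-/- (SD, n = 5) and 8.28 ± 0.23 in BALB/c (SD, n = 5). At Af 24 h its arrays read 7.66, 9.41, 7.90 and 8.49 in C57BL/6 and ran from 8.06 to 9.69 in SP-D-/-, both overlapping air. In BALB/c they read 9.41, 8.92, 9.67, 4.22 and 4.93, with the 2 doubtful arrays far below the other 3. The BALB/c change of -0.85 ± 0.67 with all arrays became 1.05 without the 5 arrays, and neither was called (adjusted p = 0.396 and 0.411). Low Mrc1 also stood on single arrays of other groups: 4.18 on replicate 3 of C57BL/6 Af 96 h with ozone, 3.38 and 4.29 on replicates 5 and 6 of C57BL/6 Af 168 h with ozone, and 4.93 on replicate 6 of SP-D-/- Af 168 h with ozone. Those groups had the lowest Mrc1 means (6.87 ± 1.88, 6.65 ± 2.23 and 6.88 ± 1.33) and the other arrays in them read between 6.15 and 8.66.

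Mgl2, a lectin of dendritic cells and macrophages that binds terminal galactose sugars, had means in air of 5.92 ± 0.38, 6.39 ± 0.29 and 5.77 ± 0.26 in C57BL/6, SP-D-/- and BALB/c. At Af 24 h it split within groups. The C57BL/6 arrays read 4.31, 8.04, 5.52 and 7.78, and the SP-D-/- arrays read 4.48, 7.29, 7.82, 8.05, 7.28 and 7.90. The BALB/c arrays read 7.31, 6.89, 7.08, 4.19 and 4.78. Apart from the low arrays (replicates 1 and 4 of C57BL/6, 1 of SP-D-/- and 4 and 5 of BALB/c), all stood above the air arrays of their strain, which reached 6.25, 6.73 and 5.95. The changes of 0.50 ± 0.57, 0.75 ± 0.53 and 0.28 ± 0.55 were not called (adjusted p = 0.552, 0.452 and 0.763). Without replicate 1 of Af 24 h, the lowest array in both strains, they were 1.20 in C57BL/6 and 1.28 in SP-D-/-. Without the 5 arrays the BALB/c change was 1.32. None of these changes was called (limma adjusted p = 0.233, 0.205 and 0.206). With the hybridization controls as a covariate and without the 5 arrays they were 1.14, 1.19 and 1.56 (adjusted p = 0.0435, 0.0343 and 0.0164), and with the actin difference as a further covariate they were 0.82, 1.03 and 1.22 and no longer called.

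Cd163, the receptor for haptoglobin and haemoglobin complexes, read 4.01, 8.68, 7.15 and 8.05 in C57BL/6 and 8.72, 7.40, 9.30, 3.53 and 5.56 in BALB/c at Af 24 h, and ran from 6.32 to 7.95 with a median of 7.15 in SP-D-/-. The air means were 6.45 ± 0.20, 6.57 ± 0.18 and 6.28 ± 0.38 in that order. The C57BL/6 and BALB/c arrays thus lay on both sides of the air arrays, and the changes of 0.53 ± 0.65, 0.33 ± 0.64 and 0.95 ± 0.61 were not called (limma adjusted p = 0.588, 0.751 and 0.403). Without replicate 1 of Af 24 h, the lowest array, the C57BL/6 change was 1.51 and was not called (limma adjusted p = 0.165). Without the 5 arrays Cd163 in BALB/c was 1.90 higher than in air (adjusted p = 0.0589), and 2.07 higher with the hybridization controls as a covariate (adjusted p = 0.0133). By Af 168 h with air it read 6.22, 5.19, 5.60, 4.26, 4.22 and 6.07 in BALB/c, all below the air arrays, with a change of -1.31 ± 0.61 that was not called (adjusted p = 0.29). Relative to the 3 remaining BALB/c arrays at Af 24 h, Cd163 fell by 3.21 at Af 168 h (adjusted p = 0.00147 without the 5 arrays), whereas with all arrays the difference of -1.64 ± 0.61 was not called (adjusted p = 0.105). In C57BL/6 its 4 Af 168 h arrays, from 5.17 to 6.06, were also all below the air arrays, with a change of -0.71 ± 0.65 (adjusted p = 0.823).

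**Figure D3:**
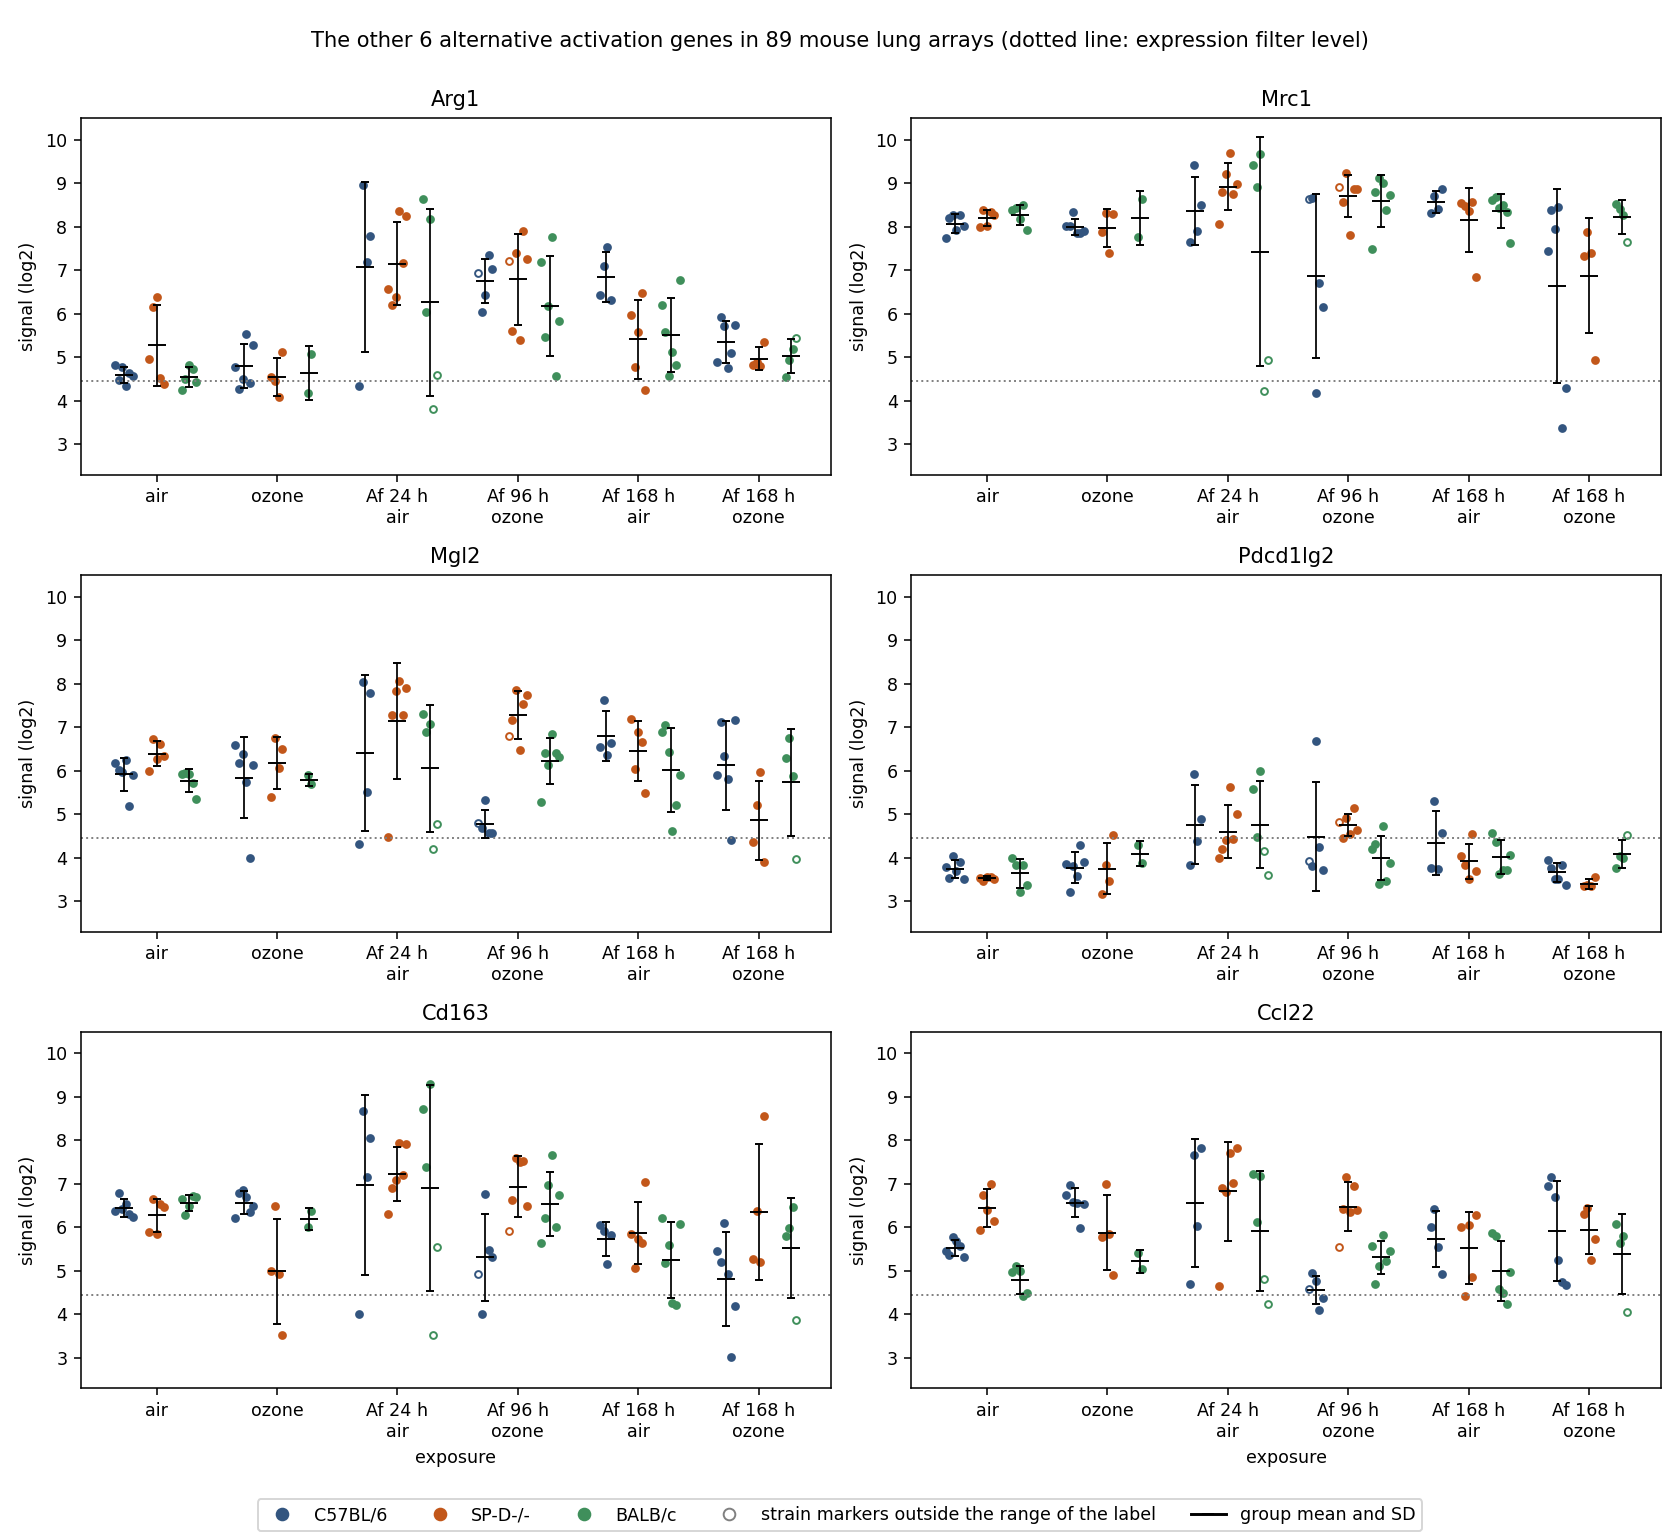
Log2 signal of the other 6 genes (panels) on each of 89 arrays by exposure (horizontal axis) and strain (colour), with the group mean and SD in black, open circles for the 5 arrays with strain markers outside the range of their label, and the filter level of 4.45 as a dotted line. The highest Arg1 array, at 8.97, is a C57BL/6 array at Af 24 h, and the lowest Mrc1 and Cd163 arrays, at 3.38 and 3.02, are C57BL/6 arrays at Af 168 h with ozone.

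Ccl22, a ligand of CCR4 on type 2 helper and regulatory T cells, ordered the strains in air as Retnla did, without passing the test. The C57BL/6 air arrays ran from 5.31 to 5.79, the SP-D-/- arrays read 5.94, 6.75, 6.40, 7.01 and 6.16, and the BALB/c arrays read 4.98, 5.11, 4.99, 4.43 and 4.49. These 3 sets did not overlap, but the differences from C57BL/6 of 0.93 ± 0.47 and -0.72 ± 0.47 were not called (limma adjusted p = 1 for both). After ozone the C57BL/6 arrays ran from 5.99 to 6.98, above all air arrays, with a difference of 1.04 ± 0.44 that was not called (adjusted p = 1). At Af 24 h Ccl22 read 4.71, 7.67, 6.04 and 7.82 in C57BL/6, 4.66, 6.90, 6.81, 7.71, 7.03 and 7.83 in SP-D-/-, and 7.24, 6.12, 7.19, 4.81 and 4.24 in BALB/c. Replicate 1 of C57BL/6 and replicate 1 of SP-D-/- were the low arrays here as for Mgl2. The changes from air of 1.03 ± 0.50, 0.37 ± 0.47 and 1.12 ± 0.49 were not called (adjusted p = 0.131, 0.688 and 0.116). Without replicate 1, the lowest array, the C57BL/6 change was 1.65 and was called (limma adjusted p = 0.0406). That array had strain markers within the range of its label and is singled out for its low value. The call without it is therefore no support for a rise. Without the 5 arrays the BALB/c change was 2.05 and was called (limma adjusted p = 0.00936).

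At Af 96 h with ozone SP-D-/- lungs had more Mgl2, Ccl22 and Mrc1 signal than C57BL/6 lungs. The C57BL/6 arrays read 4.79, 4.67, 5.33, 4.57 and 4.56 for Mgl2 and 4.58, 4.96, 4.77, 4.11 and 4.38 for Ccl22. The SP-D-/- arrays read 6.80, 7.17, 7.86, 6.47, 7.54 and 7.75 for Mgl2 and 5.56, 6.42, 7.17, 6.35, 6.96 and 6.40 for Ccl22, above every C57BL/6 array for both genes. The first value of each of these 4 sets is from an array with doubtful strain markers, replicate 1 of either strain. For Mrc1 the C57BL/6 arrays read 8.65, 8.66, 4.18, 6.70 and 6.15, and the SP-D-/- arrays ran from 7.82 to 9.24. Relative to C57BL/6, SP-D-/- lungs were 2.48 ± 0.53 higher in Mgl2, 1.92 ± 0.47 higher in Ccl22 and 1.85 ± 0.64 higher in Mrc1 (limma adjusted p = 0.0025, 0.00643 and 0.0388), so that 3 of 7 members were called, against 16.2% of all genes. The median difference of the 7 was 1.64, and that of all genes 0.10. Cd163 was 1.64 ± 0.61 higher and just missed the threshold (adjusted p = 0.0521). The differences without the 5 arrays were 2.58 in Mgl2, 2.11 in Ccl22, 2.25 in Mrc1 and 1.75 in Cd163 (adjusted p = 0.00113, 0.00201, 0.00594 and 0.0241), and 4 of 7 members were called, against 21.8% of all genes. The Mrc1 call was lost on leaving out any of 8 of 11 arrays, with differences from 1.17 (without replicate 3 of C57BL/6) to 2.29. It was also lost with only the groups compared in the fit, and with the replicate numbers as a block.

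Within C57BL/6, Ccl22 fell by 2.01 ± 0.47 from ozone alone to Af 96 h with ozone (limma adjusted p = 0.000725), without overlap, while Retnla and Arg1 rose. These were 3 of 7 members called, against 36.4% of all genes, and the median member change was -1.06 against 0.00 for all genes. Without the 5 arrays 5 of 7 members were called, against 40% of all genes, with Mrc1 lower by -1.58 (adjusted p = 0.0197) and Pdcd1lg2 as the further ones. The corresponding counts were 2 of 7 in SP-D-/- (Retnla and Arg1, against 2.58% of all genes) and 0 of 7 in BALB/c, where limma called 0.0531% of all genes. In BALB/c 2 members and 723 of the 15065 genes tested had an unadjusted p under 0.05. The Mgl2 change in C57BL/6 was -1.06 ± 0.53 (adjusted p = 0.106), and in SP-D-/- Cd163 was 1.95 ± 0.65 higher than after ozone alone (adjusted p = 0.0819). There Cd163 was 2.16 higher without the 5 arrays and was called (adjusted p = 0.0245; 3 of 7 members, against 2.24% of all genes). Relative to C57BL/6 at Af 96 h, BALB/c lungs were 1.73 ± 0.64 higher in Mrc1 and 1.44 ± 0.53 higher in Mgl2 (limma adjusted p = 0.0821 and 0.0798). Limma called 0 of 7 members there, against 6.26% of all genes. An unadjusted p under 0.05 was reached by 3 members and by 3784 of the 15065 genes tested. Without the 5 arrays the Mrc1 and Mgl2 differences were 2.17 and 1.44 and were called (limma adjusted p = 0.00535 and 0.0462). Those were 2 of 7 members, against 14.8% of all genes.

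Hybridization control and macrophage marker levels also differed between these groups. The hybridization controls are bacterial transcripts added in fixed amounts before hybridization, and their mean log2 level over 10 probe sets was 10.90 ± 0.45 (SD, n = 5) in C57BL/6 Af 96 h with ozone. It was 8.59 ± 1.14 (SD, n = 6) in C57BL/6 ozone and 9.41 ± 0.61 (SD, n = 6) in SP-D-/- Af 96 h with ozone. With that level as a covariate and without the 5 arrays, the Ccl22 change in C57BL/6 was -0.93 (adjusted p = 0.101) and 3 of 7 members were called there (Retnla, Arg1 and Pdcd1lg2), against 15.4% of all genes. Leaving out replicate 3, whose Pdcd1lg2 value is the highest of all, was not combined with that covariate. The SP-D-/- differences in Mgl2 and Ccl22 were then 1.69 and 1.39 and stayed called (adjusted p = 0.0161 and 0.034; 2 of 7 members, against 2.65% of all genes), and that in Mrc1 was 1.66 (adjusted p = 0.082). The 6 pan-macrophage markers had mean levels from 5.65 to 6.52 over the C57BL/6 Af 96 h arrays and from 6.84 to 7.57 over the SP-D-/- arrays, the 7 alveolar macrophage markers from 5.96 to 6.61 and from 6.81 to 7.57, and the 7 interstitial macrophage and monocyte markers from 5.68 to 6.41 and from 7.10 to 7.66. Of these lists 1 of 6, 1 of 7 and 5 of 7 genes were higher in SP-D-/- by limma, and none was lower. Between these groups limma called 16.2% of all genes in the fit of all arrays. With the control level and without the 5 arrays it called 2.65%. Their part in the member differences was not tested.

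Across all 89 arrays, the deviation of a member from its group mean was set against that of the hybridization controls and of the actin difference, the log2 signal of the 3′ minus the 5′ beta-actin control probe set, which grows as RNA is broken or amplified from one end. These were 14 relations. For the control level, Mgl2 had a Pearson r of -0.684 and Spearman rho of -0.621, and Ccl22 an r of -0.619 and rho of -0.606 (n = 89 for each, 100000 permutations within groups, adjusted p = 4.67e-05 for r and 7e-05 for rho, from the smallest p the permutations can give, 1e-05). Without the 2 arrays farthest from the median control level r was -0.671 and -0.622. Cd163 had an r of -0.471 and Mrc1 of -0.441 (permutation adjusted p = 0.00014 and 4.67e-05), Arg1 of -0.305 (0.0374), Retnla of -0.283 (0.0546) and Pdcd1lg2 of -0.182 (0.18). The lectins, Cd163 and Ccl22 thus ran lower on arrays with bright controls, and the Retnla relation passed by rho (-0.358, adjusted p = 0.00714) but not by r. For the actin difference Ccl22 had an r of -0.333 and rho of -0.409 (adjusted p = 0.0571 and 0.00291), and no other member passed by either measure. The mean actin difference was 1.59 to 1.88 in the air groups and 2.46 to 3.08 in the challenged groups. Its part in the changes after challenge was not tested beyond the fit that holds it as a covariate.

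**Figure D4:**
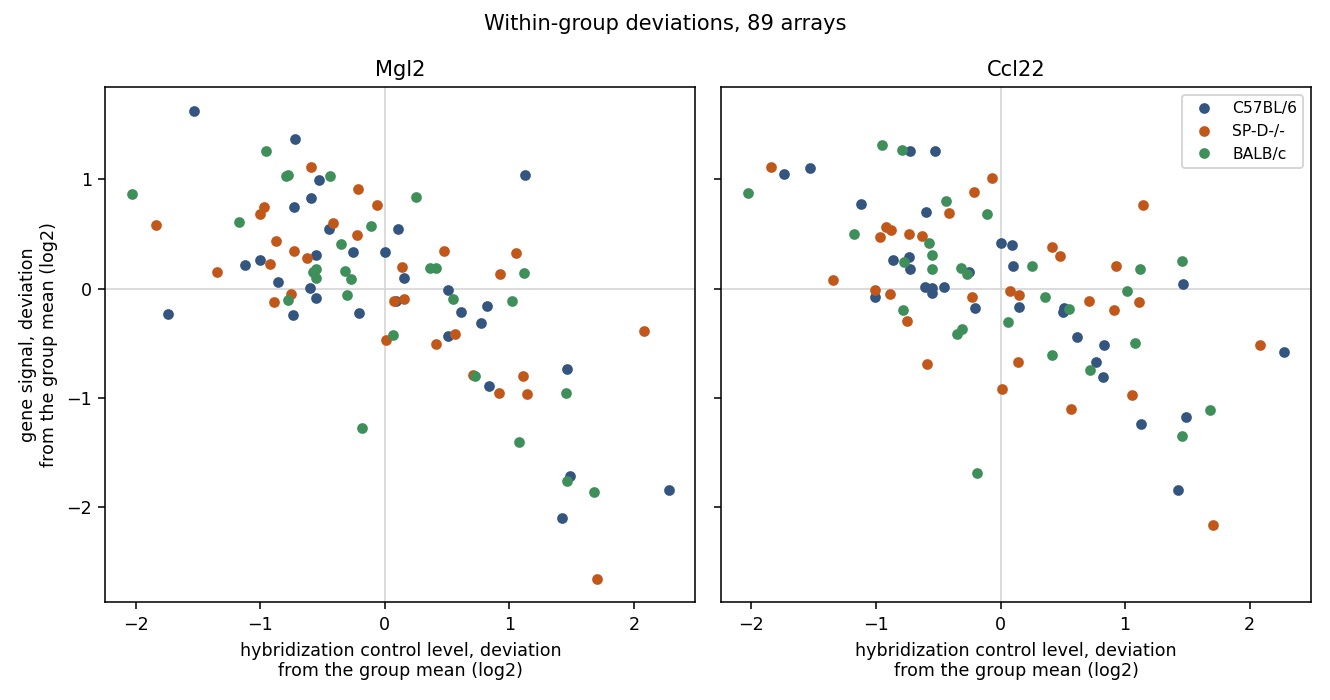
Deviation of Mgl2 (left) and Ccl22 (right) from the mean of their group (log2, vertical axis) against that of the hybridization control level (log2, horizontal axis), 1 point per array for 89 arrays, coloured by strain. Both genes fall as the control level rises, with Pearson r of -0.684 and -0.619.

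Other comparisons of the members gave few calls. At Af 168 h with air 2 of 7 members were called against air in C57BL/6 (Retnla and Arg1, against 1.35% of all genes). Limma called 1 of 7 in SP-D-/- (Retnla, against 1.35%) and 1 of 7 in BALB/c (Retnla, against 1.56%). Between Af 168 h and Af 24 h with air limma called 0 of 7 members in C57BL/6 (0.186% of all genes), SP-D-/- (1.36%) and BALB/c (4.36%). At an unadjusted p under 0.05 were 0, 4 and 2 members, and 2673, 1308 and 2897 of the 15065 genes tested. The 4 in SP-D-/- were all lower at 168 h: Arg1 by -1.75, Cd163 by -1.36, Ccl22 by -1.30 and Pdcd1lg2 by -0.68. Ozone against air at Af 168 h gave 0 of 7 called members in C57BL/6 (0.0597% of all genes), SP-D-/- (0.604%) and BALB/c (0.0199%). There 2, 1 and 0 members had an unadjusted p under 0.05, as did 2396, 2521 and 1187 of the 15065 genes tested. In C57BL/6 those 2 were Mrc1, at -1.93 ± 0.68, and Arg1, at -1.49 ± 0.59, whose 6 ozone arrays (4.76 to 5.92) all lay below the 4 air arrays (6.32 to 7.53) although the adjusted p was 0.244. SP-D-/- against C57BL/6 gave 0 of 7 at Af 24 h (0.0863% of all genes), at Af 168 h with air (0.0199%) and at Af 168 h with ozone (0.504%). An unadjusted p under 0.05 was reached by 0, 1 and 2 members, and by 1548, 594 and 1983 of the 15065 genes tested. BALB/c against C57BL/6 gave 0 of 7 at the same 3 exposures (0.385%, 0.597% and 0.139%). The unadjusted counts were 0, 1 and 1 members, and 1427, 1404 and 1181 genes. The difference of the Af 24 h response from C57BL/6 was called for 0 of 7 members in SP-D-/- (0% of all genes) and BALB/c (0.0133%). In each, 1 member, Retnla, had an unadjusted p under 0.05, as did 564 and 551 of the 15065 genes tested.

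Of the upstream genes of the pathway, the ligand Il13 was the one called at Af 24 h in every strain. At that time limma called 16.2%, 4.71% and 12.1% of all genes in C57BL/6, SP-D-/- and BALB/c. Among 7 type 2 ligands and inducers, Il13, which encodes IL-13, was called at Af 24 h in every strain, higher by 1.29 ± 0.27, 0.86 ± 0.26 and 0.98 ± 0.27 in C57BL/6, SP-D-/- and BALB/c (limma adjusted p = 0.000924, 0.0343 and 0.00998). Il4 was called in C57BL/6 (0.68 ± 0.23, adjusted p = 0.0339), and no other gene of that list was called at that time. In each strain 3 of the 7 had an air mean under the filter level, and 1, 2 and 2 at Af 24 h in the same strain order. Which genes these were is not given here. The calls may therefore rest on genes that passed the filter through challenged arrays. Of 7 receptor and kinase genes tested, C57BL/6 had 2 higher and 2 lower, SP-D-/- 0 and BALB/c 1 higher. Il13ra2, the decoy receptor for IL-13, rose by 0.85 in C57BL/6 and 1.00 in BALB/c. In C57BL/6 Il13ra1, a signalling chain of the receptor, fell by 2.74 and Stat6 by 0.71 (adjusted p = 0.00207 and 0.0216). Of 7 transcription regulators, Egr2 rose by 1.08 in C57BL/6 and Myc by 1.49 in SP-D-/-, and none was called in BALB/c. A single call in a list of 7 genes is close to the share of all genes in C57BL/6 and BALB/c. It is then no result about the list.

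Of 14 other tested genes known from alternative activation, 5 rose and 1 fell at Af 24 h in C57BL/6, 5 rose in SP-D-/-, and 5 rose and 1 fell in BALB/c, where 16.2%, 4.71% and 12.1% of all genes were called. The median change was 0.74, 1.02 and 0.81. Ccl8, a chemokine for monocytes and eosinophils, rose by 1.87, 2.20 and 3.35 (adjusted p = 0.0489, 0.0283 and 0.00039). Ccl24, an eosinophil attractant, rose by 2.17 in C57BL/6 and 1.54 in SP-D-/-. Cd36, a scavenger receptor, fell by 1.73 in BALB/c. At Af 168 h with air 6 of the 14 were called in BALB/c, all higher, led by the chitinase-like genes Chil4 (3.31 ± 0.63) and Chil3 (3.18 ± 0.39), against 2 in C57BL/6 and 0 in SP-D-/-, and 1.56%, 1.35% and 1.35% of all genes were called there. At Af 96 h with ozone Ccl8 was higher than after ozone alone by 2.55, 4.24 and 4.62 in C57BL/6, SP-D-/- and BALB/c. Of 9 classical activation genes tested, 3, 2 and 2 rose at Af 24 h in C57BL/6, SP-D-/- and BALB/c, with Cxcl10, an interferon-induced chemokine, higher by 2.25, 2.17 and 1.38 and Il6 by 1.93, 1.75 and 1.53. From Af 24 h to Af 168 h Cxcl10 fell by 1.96, 2.04 and 1.14 (adjusted p = 0.0156, 0.0001 and 0.0406).

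Markers of other cell types were read beside the Af 24 h rises. Limma called 16.2%, 4.71% and 12.1% of all genes at that time in C57BL/6, SP-D-/- and BALB/c. Without the 5 arrays the BALB/c share was 4.51%. The BALB/c counts and levels that follow hold the 2 doubtful arrays, and counts without them are not given here. Of the 6 pan-macrophage markers 0 rose in each strain and 2 fell in BALB/c, with medians of -0.18, -0.18 and -0.35 in C57BL/6, SP-D-/- and BALB/c. Their mean level ran from 6.72 to 7.29 in C57BL/6 air and from 6.24 to 7.62 at Af 24 h, from 6.76 to 7.41 and from 5.70 to 7.39 in SP-D-/-, and from 6.61 to 7.26 and from 5.19 to 7.26 in BALB/c. Of the 6 dendritic cell markers, a list that holds Ccl17, 3 rose in each strain, and 1 fell in C57BL/6. The 7 alveolar macrophage markers are a list that holds Chil3, and of these 0, 0 and 1 rose and 2, 1 and 2 fell. Of 4 airway secretory markers 2, 3 and 4 fell, with medians of -2.24, -2.36 and -3.40. The 4 eosinophil markers had group means from 4.20 to 4.87, close to the filter level, with 2 or 3 of the 4 genes below it in every group. The part of any of these in the member values was not tested.

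The members did not share one pattern over the 18 group means. Pearson r between members, given as a description over groups that share arrays of one normalization, ran from -0.149 for Retnla and Cd163 to 0.827 for Arg1 and Pdcd1lg2. Mrc1 and Mgl2 had an r of 0.718, Retnla and Arg1 of 0.576 and Mgl2 and Ccl22 of 0.581. Among 13891 genes, the group means of Retnla were most like those of Tuba1c (r = 0.9), Lgals3 (0.898) and Ran (0.845), and those of Arg1 most like Slc7a2 (0.934), Bhlhe40 (0.931) and Pik3cd (0.899). Mrc1 was most like Tmem47 (0.914), Pip4k2a (0.906) and Hip1 (0.899), and Mgl2 most like Npr1 (0.914), Hfe (0.871) and Cxcr6 (0.866). Pdcd1lg2 was most like Nol6 (0.859), Tnfrsf4 (0.849) and Celf1 (0.833). For Cd163 the closest were Gadd45b (0.897), Csf1 (0.826) and F3 (0.821), and for Ccl22 Apol7c (0.85), Mmp3 (0.825) and Tnfsf9 (0.788).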

How the data were processed

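Whole-lung RNA was amplified with a NuGEN system and hybridized to GeneChip HT Mouse430PM plates, per the labels' protocols. The authors deposited log2 signals of 45141 probe sets. They ran from 1.86 to 13.54 with the same median (4.90) and highest value on every array, as quantile normalization gives. The software was not given in the sources used here. A probe set names a gene only if it has 1 symbol (28898 had 1, 551 several). Each gene was read by its brightest probe set on average, and tested if above the 40th percentile of all values (4.45) on at least 4 arrays.

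In R 4.3.3, limma 3.58.1 estimated a mean for each of the 18 groups in 1 model of the 89 arrays. For 34 contrasts, two-sided p-values were adjusted by Benjamini and Hochberg over 15065 genes, with calls under 0.05. Changes are log2 ± SE, levels mean ± SD. The fit was tested on simulated data. The members, the other 15 gene lists and the 5 doubtful arrays were chosen with earlier results of these data known. The text names the 7 members, and of other lists the 3 called genes with the largest change, or fewer. Markers without values here (such as Ly6g, Ccr7 and Kdm6b) were not used.

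Replicate numbers were checked as pairs: every pair correlated above 0.1 for the effect of ozone at Af 168 h in C57BL/6 and for BALB/c against C57BL/6 at Af 168 h with air (4 of 4 pairs in each, mean 0.337 and 0.256), and the block changed no member's call there. The alternatives were cyclic loess, the mean of all probe sets, no filter, only the groups compared, the replicate block, leaving out each array, and leaving out the 5 arrays, alone, with the control level or, added after seeing the data, with the actin difference too.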

Additional observations from a re-analysis of the deposited data

Results flagged for a closer look

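In groups of 4 to 10 arrays, each member was examined for a single array far from the rest by Dixon's test. Of 119 sets of a gene and a group, 10 held such an array, where chance flags about 1 in 20.

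Mgl2 read 4.48 and Ccl22 4.66 on replicate 1 of SP-D-/- Af 24 h, where the other arrays read 7.28 to 8.05 and 6.81 to 7.83. Mgl2 also read 5.18 on replicate 5 of C57BL/6 air (others 5.90 to 6.25) and 4.0 on replicate 5 of C57BL/6 ozone (others 5.75 to 6.58). Mrc1 read 8.35 on replicate 3 of C57BL/6 ozone (others 7.85 to 8.02), 6.84 on replicate 6 of SP-D-/- Af 168 h with air (others 8.36 to 8.56) and 7.62 on replicate 6 of BALB/c Af 168 h with air (others 8.35 to 8.68). Pdcd1lg2 read 6.68 on replicate 3 of C57BL/6 Af 96 h with ozone (others 3.72 to 4.25). On replicate 6 of SP-D-/- Af 168 h with ozone it read 3.56 (others 3.34 to 3.37), and Arg1 read 5.36 on the same array (others 4.81 to 4.90).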

How the results depend on the processing

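Of the 238 member changes, 238 kept their direction and side of the threshold with all probe sets averaged and 238 without the filter, 236 with cyclic loess, 229 without the 5 doubtful arrays, 223 with the control level too, 227 with only the groups compared and 216 with the replicate block. No called change reversed. Counts of members called moved as follows, and the cause was not tested.

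Without the 5 arrays, 2 were called in BALB/c at Af 168 h against Af 24 h (0 with all arrays). At Af 96 h, 5 were called in C57BL/6 (3) and 3 in SP-D-/- (2), and at Af 24 h 4 in BALB/c (3). Against C57BL/6 at Af 96 h, 2 were called in BALB/c (0) and 4 in SP-D-/- (3). The shares of all genes called in these fits were 0.75%, 40%, 2.24%, 4.51%, 14.8% and 21.8%, in that order. With the control level as well, the Af 168 h against Af 24 h counts were 2 in BALB/c and 2 in SP-D-/- (0), the Af 24 h counts 6 in BALB/c and 5 in C57BL/6 (3), and 1 was called (0) in BALB/c against C57BL/6 at Af 96 h and 1 (0) in SP-D-/- against C57BL/6 at Af 168 h with ozone. With the actin difference too, a setting chosen after seeing the data, these counts were 3, 2, 5 (BALB/c at Af 24 h), 1 and 1. With only the groups compared, 2 were called in BALB/c at Af 168 h (1), 1 in BALB/c at Af 24 h (3), 1 in BALB/c against C57BL/6 at Af 96 h (0), 2 in that comparison in air (1) and 2 in C57BL/6 after ozone (1).

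The labels do not state whether equal replicate numbers are pairs. In the comparisons between groups listed next, not every pair of equal number correlated above 0.1. For ozone against air in C57BL/6, 5 of 6 pairs did, with a mean of 0.266. With the replicate block, 0 were called in C57BL/6 at Af 24 h (3), 6 in SP-D-/- (3) and 1 in BALB/c (3). The block gave 5 in C57BL/6 (3) and 0 in SP-D-/- (2) at Af 96 h, 0 in SP-D-/- at Af 168 h (1) and 2 in SP-D-/- at Af 168 h against Af 24 h (0). After ozone it gave 0 in BALB/c (1), 2 in C57BL/6 (1), 1 for the response difference of SP-D-/- (0) and 1 between BALB/c and C57BL/6 (0), and between SP-D-/- and C57BL/6 in air 0 (1).

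Leaving out 1 array at a time gave 1 to 4 called members in BALB/c, 2 to 4 in C57BL/6 and 1 to 3 in SP-D-/- at Af 24 h, 3 to 4 in C57BL/6 and 0 to 3 in SP-D-/- at Af 96 h, 1 to 2 in C57BL/6 at Af 168 h, 0 to 1 in BALB/c and in SP-D-/- at Af 168 h against Af 24 h, 2 to 3 for SP-D-/- and 0 to 1 for BALB/c against C57BL/6 at Af 96 h, and the same count as with all arrays elsewhere. Where this left 1 array (BALB/c ozone), it is assumed to vary like the other groups. Retnla was near the top of the scale and Pdcd1lg2 near its bottom, which limits the changes that can be measured there.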
